A study of Mus musculus with 6 samples.

Results

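Pax1, Emx2, Irx3, Irx5 and Shox2 are transcription factor genes of the shoulder girdle and the upper arm, and Zic1, a factor of the somites and neural tube, is described with them. They were chosen by name, with earlier results of these data known, and all 6 were found among the 13158 genes of the deposited table. Their RNA was measured in mouse forelimb progenitors at embryonic day 13.5, in 3 libraries from the proximal and 3 from the distal part of the dissected limb. All cells came from wild-type C57BL/6 embryos. They carried a Sox9-CreERT2 driver, a Rosa26-tdTomato reporter and a ScxGFP reporter, and cells positive for both colours were sorted. The sample labels name no treatment, although the recombinase acts only once it is induced. The tdTomato colour marks cells in which the Sox9 promoter has driven the inducible recombinase and their descendants, so a sorted cell need not have expressed Sox9 when it was collected. When the recombinase was induced, and whether embryos were pooled, is not stated in any source used here. The p-values below thus reflect the scatter of these libraries alone, part of which may be technical.

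The forelimb skeleton is laid down as a shoulder girdle (scapula and clavicle), a stylopod (the humerus), a zeugopod (radius and ulna) and an autopod (the hand). Different transcription factors are needed for each segment. In the mouse, Emx2 is needed for most of the scapula and Pax1 for its acromion, Shox2 for the humerus, and Irx3 together with Irx5 for proximal and anterior limb skeleton, a requirement described in the hindlimb. Zic1 encodes a zinc finger protein of the neural tube and of dorsal somite derivatives, related to the Gli factors of hedgehog signalling.

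On the mm10 assembly, Pax1 lies on chromosome 2 from 147361925 to 147393295 (plus strand) and Emx2 on chromosome 19 from 59458372 to 59465357 (plus strand). Irx3 (chromosome 8, 91798525 to 91802067, minus strand) and Irx5 (chromosome 8, 92357625 to 92376286, plus strand) belong to the same Iroquois cluster, 555557 bases apart. Shox2 spans 66971727 to 66981771 of chromosome 3 and Zic1 spans 91358058 to 91365810 of chromosome 9, both on the minus strand. All 6 are protein-coding. Promoter sequences from RefSeq (GRCm38.p6) matched 5 of the 6 by symbol, all but Irx5. The 250 bases before the start that RefSeq gives are shown 5′ to 3′ for Pax1 and Zic1, which were higher in proximal libraries, and for Shox2, which was higher in distal ones. These starts are not always the outermost ones of the spans above, which come from GENCODE. The RefSeq start of Pax1 is base 147364994 of chromosome 2, 3069 bases inside its span, and those of Emx2, Irx3 and Zic1 lie 318, 413 and 42 bases inside theirs, while that of Shox2 is the same in both. Capitals mark exact matches on either strand to a CCAAT box (CCAAT), a MEIS core (TGACAG), a PBX-HOX site (TGATNNAT) or a TATA box (TATAAA).
Pax1 (chr2:147364744-147364993, strand +): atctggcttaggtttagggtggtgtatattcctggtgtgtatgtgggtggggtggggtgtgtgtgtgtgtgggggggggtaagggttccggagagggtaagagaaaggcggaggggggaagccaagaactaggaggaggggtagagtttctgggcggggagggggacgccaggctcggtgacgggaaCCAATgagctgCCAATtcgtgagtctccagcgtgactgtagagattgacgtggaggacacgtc
Zic1 (chr9:91365769-91366018, strand -): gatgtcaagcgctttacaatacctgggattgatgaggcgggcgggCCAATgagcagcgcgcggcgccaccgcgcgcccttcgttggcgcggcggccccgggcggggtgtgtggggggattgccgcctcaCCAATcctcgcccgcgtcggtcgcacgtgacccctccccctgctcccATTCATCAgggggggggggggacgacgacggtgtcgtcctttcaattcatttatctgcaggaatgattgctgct
Shox2 (chr3:66981772-66982021, strand -): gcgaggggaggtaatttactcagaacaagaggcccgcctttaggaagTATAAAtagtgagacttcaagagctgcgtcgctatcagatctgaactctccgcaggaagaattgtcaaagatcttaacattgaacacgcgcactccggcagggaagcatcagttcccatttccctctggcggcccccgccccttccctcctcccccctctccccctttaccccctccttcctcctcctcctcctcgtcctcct

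CCAAT occurred at positions -63 and -52 from the RefSeq start of Pax1 and at -205 and -121 from that of Zic1, all on the gene's own strand. Emx2 held 1 match at -21, and Shox2 and Irx3 held none. Of all 32851 promoters in the RefSeq table, 33.8% held a CCAAT match in this window. TATAAA was found in Shox2 at -203 (12.4% of all promoters) and TGATNNAT in Zic1 at -74, on the opposite strand (7.68%). TGACAG was in none of the 5 (15.9% of all promoters). None of these matches overlapped another. They describe letters in a window, and these data hold no measurement of factor binding.

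Pax1, Irx3, Zic1 and Irx5 were all lower in the distal libraries, by 17.5-, 13.3-, 8.68- and 4.40-fold in the fitted model. Shox2 went the other way and was 2.36-fold higher in distal libraries. Emx2 was the member that did not pass the test, with overlapping regions. All 6 genes passed the filter on low counts, so each entered the test across 9512 genes. Of those, 3.39% were called by edgeR at an adjusted p of 0.05 (2.27% towards proximal and 1.11% towards distal libraries), against 5 of these 6. As earlier results were known when the members were chosen, this comparison of shares is a description and not a test. The libraries of the regions did not overlap for the same 5 members, and for 16.2% of all tested genes (8.67% with proximal and 7.53% with distal libraries above). The median log2 fold change, distal over proximal, was -2.63 over the members and 0.009 over all tested genes. In bulk samples, fewer cells of a type and less RNA per cell cannot be told apart. That holds for each difference given here.

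**Figure D1:**
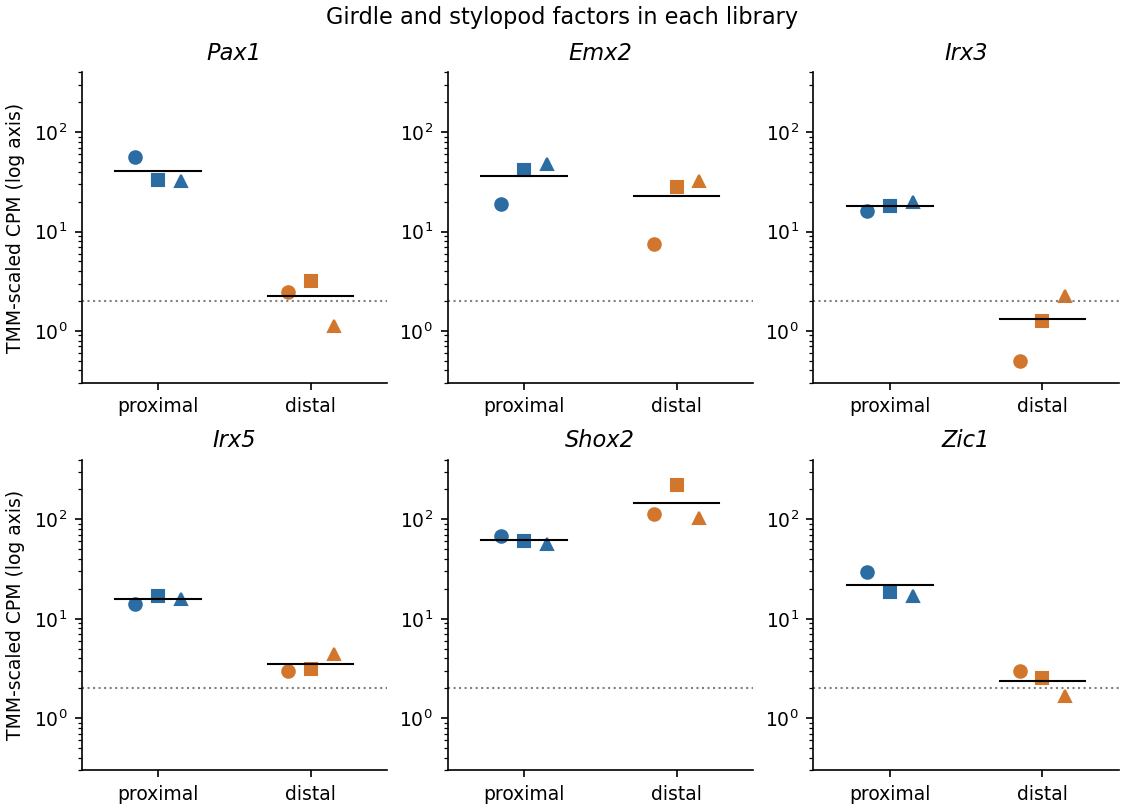
Level of each gene in each library, in CPM (counts put on 1 common depth) with TMM scaling, on a log axis; circles, squares and triangles are libraries 1, 2 and 3 of a region, black bars are means, and the dotted line marks 2.01 CPM, the highest level that 3 counts represent in any library. Regions are apart for every gene but Emx2, and Shox2 alone is higher in distal libraries.

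Total counts ran from 1585631 to 2623788 per library, so 1 count was worth 0.360 to 0.669 CPM. The cells carried the RNA of both sorting genes in each region. Sox9, the cartilage precursor factor, averaged 104 ± 18.5 CPM (SD, n = 3) proximally and 333 ± 55.2 CPM distally, and Scx, the tendon precursor factor, was also higher in distal libraries (log2 fold change 1.15; adjusted p = 0.0343 in edgeR). Leaving out proximal library 2, proximal library 3 or distal library 1 ended the call for Scx (adjusted p of 0.104, 0.094 and 0.0956). The ribosomal RNA precursor Rn45s took 2.20% to 6.81% of counts in 5 libraries and 11.7% in proximal library 1. Leaving Rn45s out ended none of the 5 calls.

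Pax1, a paired-box factor of the pectoral girdle and of the ventral part of the somite, stood at 56.2, 33.1 and 32.4 CPM in proximal libraries 1 to 3. In distal libraries 1 to 3 it stood at 2.47, 3.16 and 1.11 CPM, from 5, 5 and 2 counts. Every proximal library lay well above every distal one, and proximal library 1 was the highest. The means were 40.6 ± 13.5 CPM and 2.25 ± 1.04 CPM (SD, n = 3 each), a log2 fold change of -4.13 (adjusted p = 0.000321 in edgeR, SE 0.41). Its fold ranked 25 among the 216 genes called higher in proximal libraries. Summed counts were 234 and 12, so the distal level was 5.78% of the proximal one (ratio 0.0578, exact 95% interval 0.0295 to 0.103, counting error only).

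Emx2, a homeobox factor needed for the scapular blade, stood at 18.7, 41.9 and 47.5 CPM in proximal libraries 1 to 3 and at 7.42, 27.8 and 32.3 CPM in distal libraries 1 to 3. Library 1 was the lowest of its region in both cases, and distal libraries 2 and 3 lay above proximal library 1. The spread within a region was of the size of the difference between regions, with 36.1 ± 15.3 CPM proximally and 22.5 ± 13.3 CPM distally (SD, n = 3 each). Distal to proximal ratios of same-numbered libraries 1, 2 and 3 were 0.396, 0.663 and 0.680, though whether these libraries are pairs is not stated. The log2 fold change was -0.72 with a 95% interval of -1.80 to 0.35 (adjusted p = 0.741 in edgeR, SE 0.48). The interval spanned 0 and also held differences of more than 1 on the log2 scale. It lay above the interval of Pax1, whose upper end was -3.23.

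The antisense gene Emx2os, which overlaps the first 264 bases of Emx2, stood at 7.36, 6.07 and 11.5 CPM proximally and at 2.97, 10.1 and 4.46 CPM distally (log2 fold change -0.59; adjusted p = 0.821 in edgeR). Its highest distal library was library 2, while that of Emx2 was library 3. As no source used here gives the strand setting, reads in that stretch could belong to either gene. The annotated 3′ end of Emx2, where a 3′-end method takes its reads, lies outside it. The same held for the other members: the spans of Pax1, Irx3, Shox2 and Zic1 overlap AI646519, Irx3os, Rsrc1 and Zic4, each on the opposite strand, but none of their 3′ ends falls inside the partner.

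Irx3 and Irx5 encode TALE-class homeodomain factors that act together in the early limb bud. Irx3 stood at 16.1, 18.2 and 19.8 CPM in proximal libraries 1 to 3 and at 0.495, 1.26 and 2.23 CPM in distal ones, from 1, 2 and 4 counts. Distal Irx3 thus rests on 4 counts or fewer in each library, far below every proximal value, with means of 18.0 ± 1.87 and 1.33 ± 0.869 CPM (SD, n = 3 each). The log2 fold change was -3.74 (adjusted p = 0.00122 in edgeR, SE 0.44). Summed counts of 7 against 112 put the distal level at 0.0705 of the proximal one (exact 95% interval 0.0277 to 0.150). Irx5 stood at 14.1, 17.1 and 15.8 CPM proximally and at 2.97, 3.16 and 4.46 CPM distally. Its libraries lay close together within a region, and the regions did not overlap (15.7 ± 1.54 against 3.53 ± 0.810 CPM, SD, n = 3 each). The log2 fold change was -2.14 (adjusted p = 0.00554 in edgeR, SE 0.33), and summed counts of 19 against 96 gave a ratio of 0.223 (0.129 to 0.368).

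The proportion of these cluster neighbours differed in value between the regions. Counts of different genes are not compared as levels here, and the share is only set against itself across libraries. In proximal libraries 1 to 3, Irx3 made up 53.3%, 51.6% and 55.6% of the counts of both genes. In distal libraries 1 to 3 the share was 14.3%, 28.6% and 33.3%. All 3 distal shares lay below all 3 proximal ones, but they rest on 7, 7 and 12 counts, and each distal interval overlapped the proximal ones (the exact 95% interval of distal library 3 was 9.92% to 65.1%). The log2 ratio of Irx3 to Irx5, with 0.5 added to each count, averaged 0.20 ± 0.12 in proximal and -1.39 ± 0.64 in distal libraries (SD, n = 3 each). The difference of -1.59 had a two-sided exact permutation p = 0.1, the smallest that 3 against 3 libraries allow, so the test could not pass at 0.05.

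**Figure D2:**
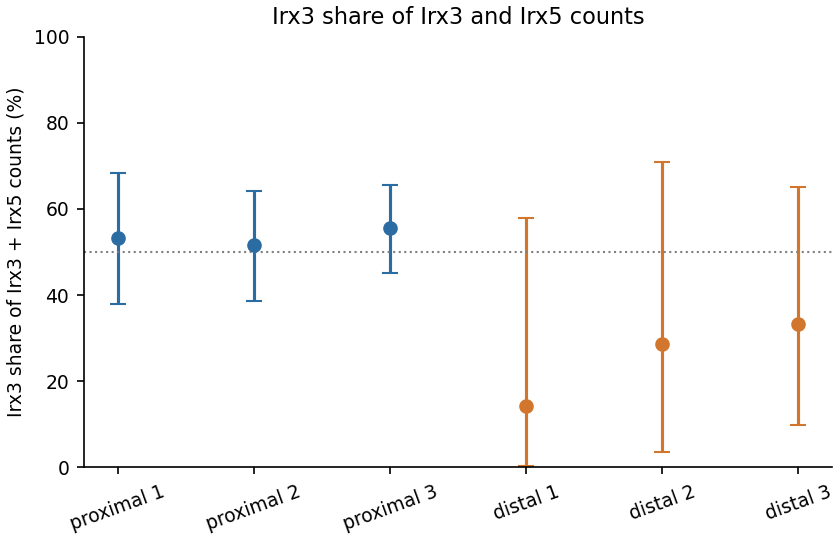
Irx3 as a percent of the summed Irx3 and Irx5 counts in each library, with exact 95% binomial intervals that cover counting error only; the dotted line marks equal counts. Proximal shares are 51.6% to 55.6% and distal shares 14.3% to 33.3%, with wide intervals in the distal libraries.

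Shox2, a homeobox factor of humerus growth and of cartilage maturation, stood at 68.2, 60.2 and 56.5 CPM in proximal libraries 1 to 3 and at 114, 219 and 103 CPM in distal libraries 1 to 3. Proximal values lay close together, and distal library 2 was about as high as the other distal libraries combined (means of 61.6 ± 6.02 and 146 ± 64.1 CPM, SD, n = 3 each). The log2 fold change was 1.24 (adjusted p = 0.0337 in edgeR, SE 0.27). Without distal library 2 it was 0.82 and no longer passed (edgeR adjusted p = 0.0733). The call was also lost without any 1 proximal library (adjusted p of 0.0515, 0.15 and 0.138 without libraries 1 to 3), where the log2 fold change stayed between 1.18 and 1.31. It was lost with limma-voom too (adjusted p = 0.0559; 2.92% of genes called).

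Zic1 stood at 29.4, 18.8 and 16.9 CPM in proximal libraries 1 to 3 and at 2.97, 2.53 and 1.67 CPM in distal libraries 1 to 3. As for Pax1, proximal library 1 was the highest, and no distal library came near the proximal ones (21.7 ± 6.76 against 2.39 ± 0.660 CPM, SD, n = 3 each). The log2 fold change was -3.12 (adjusted p = 0.00179 in edgeR, SE 0.40), and summed counts of 13 against 125 gave a ratio of 0.117 (exact 95% interval 0.0607 to 0.208). Zic4, a related zinc finger gene, starts 3397 bases from Zic1 and is read in the opposite direction. It had 12, 7 and 13 counts in proximal libraries 1 to 3 and 0 in every distal library. Taking 3 counts over the 3 distal libraries as the limit that a count of 0 allows put Zic4 at least 9.46-fold higher proximally. That figure takes the 32 proximal counts as exact. The ratio of distal to proximal counts had an exact 95% upper limit of 0.138. This is a weaker bound, as it also covers the counting error of the proximal libraries. The filter on low counts kept Zic4 out of the main test. With no filter it passed (edgeR adjusted p = 0.0085; 2.91% of genes were called in that fit), as it did in DESeq2 (adjusted p = 0.00287; 3.00% called).

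**Figure D3:**
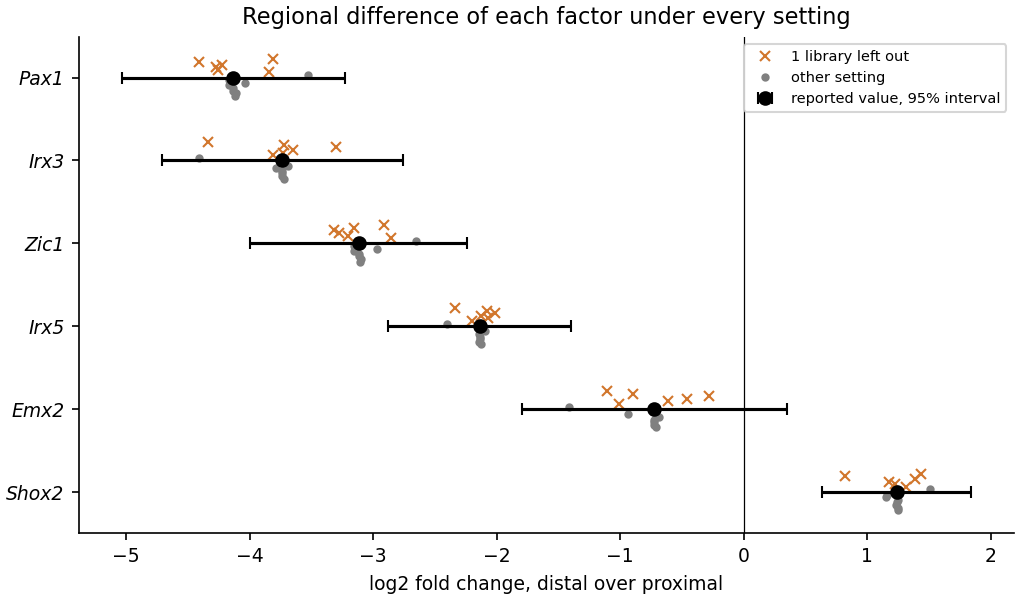
Log2 fold change of each gene, distal over proximal: black points with bars are the reported values with 95% intervals, crosses are fits with 1 library left out, and grey points are the other settings. Pax1, Irx3, Zic1 and Irx5 stay below 0 and Shox2 above 0 in every fit. Emx2 also stays below 0 (-1.41 to -0.28 in the alternatives), but its 95% interval spans 0.

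Other genes of the same families did not share one pattern. Of 17 listed Pax, Emx, Irx and Zic relatives, 6 were in the table and Irx1 was the 1 tested. It did not pass (log2 fold change -0.04, SE 0.73), and no relative had an unadjusted p under 0.05 in edgeR's main test. DESeq2, which tested more genes, called 2, Zic4 and Zic2. Irx1, in the other Iroquois cluster on chromosome 13, stood at 14.7, 18.2 and 4.32 CPM proximally and at 6.93, 2.53 and 25.1 CPM distally. Irx2, its neighbour, had 3, 9 and 2 counts in proximal and 1, 2 and 15 in distal libraries. Both were highest in distal library 3 and second highest in proximal library 2.

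Pax9, the closest relative of Pax1 and active beside it in the ventral somite, had 1 count in each proximal library and 21, 2 and 9 counts in distal libraries 1 to 3. It thus stood on the other side from Pax1. The ratio of summed counts, distal to proximal, was 12.0 (exact 95% interval 3.76 to 61.4). With no filter it passed narrowly (edgeR adjusted p = 0.0487), and with DESeq2 it did not (adjusted p = 0.0738). Zic2 had 1, 3 and 3 counts in proximal and 12, 4 and 29 in distal libraries, a ratio of 7.25 (exact 95% interval 3.24 to 19.0). It passed in DESeq2 (adjusted p = 0.0391) but not in edgeR with no filter (adjusted p = 0.0572).

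**Figure D4:**
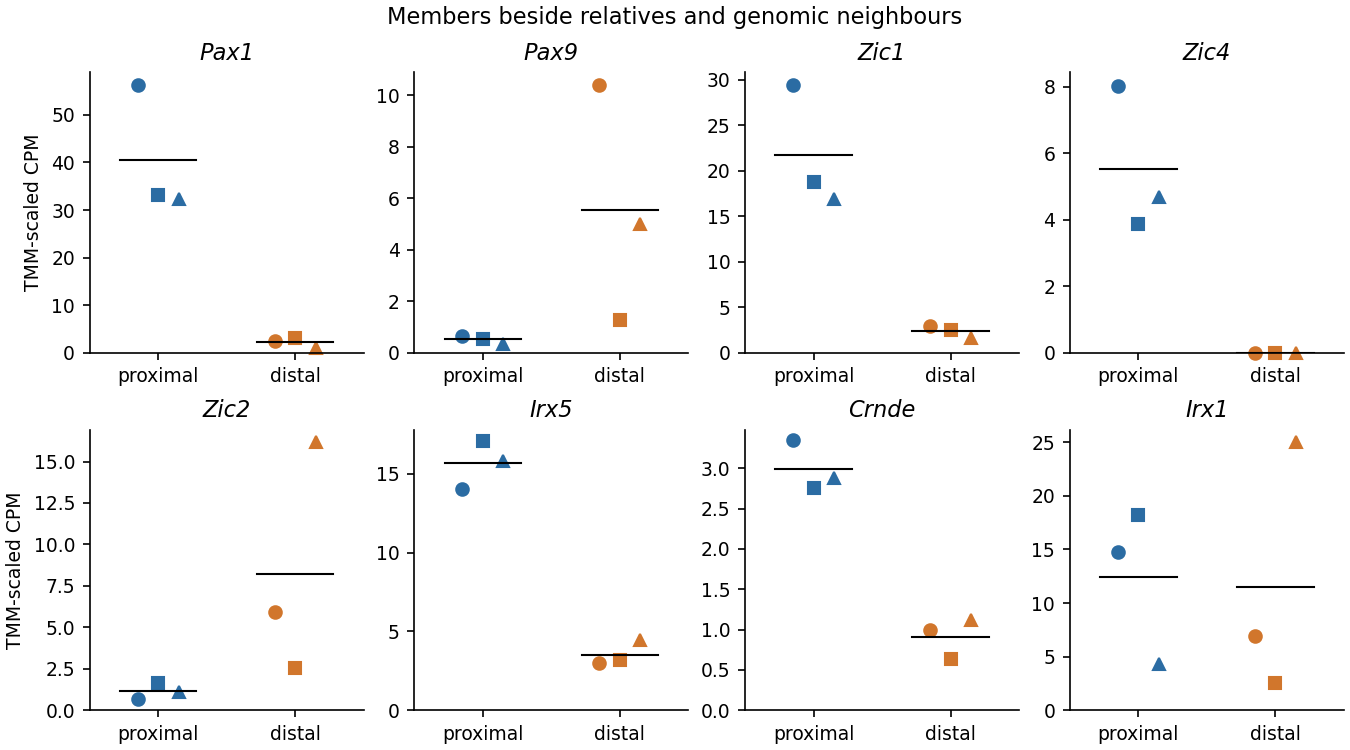
TMM-scaled CPM per library, on linear axes that start at 0, for Pax1, Zic1 and Irx5 beside relatives and genomic neighbours; markers are libraries 1, 2 and 3 (circle, square, triangle) and bars are means. Zic4 has no distal count, Pax9 and Zic2 have their higher values in distal libraries, and Irx1 overlaps between regions.

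Genes that lie beside the members were also read. Of 14 listed neighbours and antisense genes, 10 were in the table and 5 tested, and none of the 5 passed (0 with an unadjusted p under 0.05; DESeq2 called Zic4). Their median log2 fold change was 0.23, against 0.009 over all tested genes. Fto, which borders the Iroquois cluster and whose introns hold distant Irx3 enhancers in the mouse, stood at 109 to 114 CPM proximally and 116 to 154 CPM distally (log2 fold change 0.29; adjusted p = 0.609 in edgeR). Rsrc1, which overlaps the 5′ end of Shox2, stood at 30.6 to 50.8 and 39.0 to 60.0 CPM (log2 fold change 0.17; adjusted p = 0.935 in edgeR). The non-coding gene Crnde starts 1505 bases from Irx5 and is read away from it. It had 5, 5 and 8 counts in proximal and 2, 1 and 2 in distal libraries, which puts the distal level at 0.313 of the proximal one (exact 95% interval 0.0909 to 0.875), and did not pass with no filter (edgeR adjusted p = 0.331).

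Among 19 other listed factors of the girdle and stylopod, 17 were in the table and 15 tested. Of these, 2 were higher in proximal libraries, 1 was higher in distal ones and 12 did not pass. Over all tested genes, 2.27% were called towards proximal and 1.11% towards distal libraries. The median log2 fold change of the 15 was -0.15, against 0.009 over all tested genes. The 2 were Meis1 and Meis2, homeobox factors of the proximal limb, and the 1 was Tbx5, the T-box factor of forelimb identity. Meis1 stood at 52.4 to 61.9 CPM proximally and 5.94 to 6.95 CPM distally, and Meis2 at 41.7 to 65.6 and 5.44 to 8.91 CPM. Tbx5 stood at 35.5 to 48.2 CPM proximally and 148 to 155 CPM distally (log2 fold change 1.82; adjusted p = 0.000212 in edgeR). The Meis relative Meis3 did not overlap between regions, at 15.4 to 23.7 against 4.45 to 9.47 CPM, and did not pass (log2 fold change -1.35; adjusted p = 0.0765 in edgeR).

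Alx1, Alx4 and Tbx15 are further factors known from the genetics of the mouse scapula, named here after their values were seen. Alx4 stood at 12.7, 16.6 and 18.3 CPM proximally and at 7.92, 10.1 and 6.69 CPM distally (log2 fold change -0.97; adjusted p = 0.167 in edgeR). Alx1 had 12, 15 and 14 counts in proximal and 7, 6 and 2 in distal libraries and was below the filter. Tbx15 was at 119 to 136 CPM proximally and 155 to 189 CPM distally (log2 fold change 0.48; adjusted p = 0.149 in edgeR). The higher values of Alx1 and Alx4 were in proximal and those of Tbx15 in distal libraries, but Alx4 and Tbx15 did not pass and Alx1 was not tested.

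Genes of cartilage maturation, a process that is altered in limbs without Shox2, gave no call in edgeR with the filter on low counts. Of 9 listed, 5 were tested, with a median log2 fold change of 0.16, and 1 had an unadjusted p under 0.05 (DESeq2 called 1 and limma-voom 0). That gene was Pthlh, a secreted brake on chondrocyte maturation, at 4.68, 2.21 and 7.91 CPM proximally and 28.2, 8.85 and 23.4 CPM distally. Its log2 fold change was 1.96 (adjusted p = 0.0709 in edgeR, SE 0.50), and it passed in DESeq2 (adjusted p = 0.0104), in edgeR with no filter (adjusted p = 0.0448) and in edgeR without distal library 2 (adjusted p = 0.0282). Runx2, the osteoblast and hypertrophic cartilage factor that lies downstream of Shox2 in the mouse, overlapped between regions at 20.1 to 53.2 and 30.1 to 72.1 CPM. It was highest in distal library 2, as Shox2 was. Pth1r and Bmp4 also overlapped, with log2 fold changes of -0.30 and -0.31.

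Profiles across the 6 libraries were compared by the root mean square distance between log2 CPM values, each centred on its own mean, over 8673 genes. Smaller values mean more alike profiles, and the measure is a description over 6 libraries. The closest profile to Pax1 was that of Hoxc6 (0.25), followed by Hoxb5os and Hoxc4 (both 0.45). The spans of Hoxc6 and Hoxb5os overlap other Hox genes in the annotation, so their reads are uncertain. Irx3 lay closest to Meis1 (0.29), Akap12 (0.35) and Meis2 (0.36), so by this measure it stood nearer to the Meis genes than to its cluster neighbour Irx5 (0.63). The distance takes in the size of the regional difference (log2 fold changes of -3.74, -3.11 and -2.14 for Irx3, Meis1 and Irx5). Distal Irx3 rests on 1, 2 and 4 counts, so this order is uncertain. Irx5 lay closest to Cdc42ep2 (0.12), Ggta1 (0.14) and Atp6v0e2 (0.15). Zic1 lay closest to Pgm5 (0.30), AI464131 (0.33) and Hspb1 (0.33).

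Shox2 lay closest to Tbx18 (0.15), a T-box gene with 128 CPM in distal library 2 against 61.8 to 67.8 CPM in the other distal libraries. Lpl (0.18) and Fli1 (0.20) came next. Emx2 lay closest to Zeb2 (0.26), Stra6 (0.27) and Adgre5 (0.31), none of which passed the test. Among the members themselves, Pax1 and Zic1 were the most alike (0.51) and Pax1 and Shox2 the least (2.42).

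**Figure D5:**
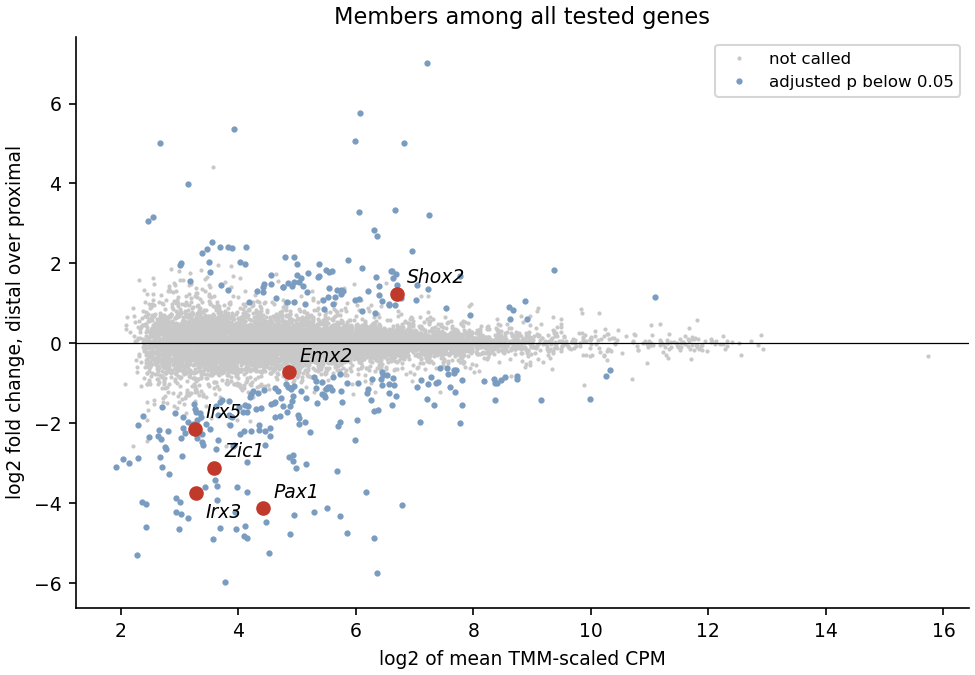
Log2 fold change, distal over proximal, of all 9512 tested genes against log2 of their mean TMM-scaled CPM; blue points passed an adjusted p of 0.05 in edgeR and the 6 factors are marked in red. Pax1, Irx3, Zic1 and Irx5 lie well below the bulk of genes at their level, Shox2 lies above it, and Emx2 lies at its lower edge.

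Some markers of other cell types also differed between regions, those of skeletal muscle most uniformly. Of 9 skeletal muscle genes, 6 were in the table and 5 tested. All 5 were higher in proximal libraries, as were 2.27% of all tested genes. The call of Des, an intermediate filament gene, was lost in 5 of the 6 fits with 1 library left out, all but that without proximal library 3 (adjusted p of 0.0809 to 0.197). The summed level of the 6 was 439, 558 and 199 CPM in proximal libraries 1 to 3 and 34.5 to 49.3 CPM in distal ones. The myogenic factor Myod1 had 36, 91 and 44 counts in proximal and 1, 2 and 3 in distal libraries. Muscle transcripts were highest in proximal library 2, as Irx5 was. Pax1 and Zic1 were highest in proximal library 1 and Irx3 in proximal library 3. The part of muscle cells in the results for these genes was not tested.

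Pax1 and Zic1 are also known from somite derivatives. Of 6 axial sclerotome genes, 3 were in the table. Pax9 was at 1 count in each proximal library. Meox1 stood at 112 to 177 CPM proximally and 49.0 to 86.0 CPM distally and passed narrowly (adjusted p = 0.0462 in edgeR), but it did not pass when proximal libraries 2 and 3 and distal libraries 1 and 3 were each left out in turn (adjusted p of 0.0863 to 0.217). Meox2 did not pass (log2 fold change -0.04). The summed level of the 3 was 160 to 249 CPM proximally and 111 to 146 CPM distally. Of 5 dermis genes, 4 were in the table and 3 tested, and 1 of them (Twist2) was higher in distal libraries. Their sums of 119 to 153 CPM proximally and 217 to 300 CPM distally rest mostly on Twist2 (means of 83.5 and 216 CPM). The median log2 fold change of the 3 was -0.46, with En1 at -1.40 and Lum at -0.46, neither of which passed. Nerve and Schwann genes (6 of 6 in the table, 1 tested) summed to 16.5 to 32.6 CPM proximally and 36.1 to 60.2 CPM distally. Endothelial (4 of 4 in the table) and epidermal genes (3 of 4) summed to at most 6.62 CPM in any library, and no listed blood gene was analysed here. The part of these cell types in the results was not tested.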

How the data were processed

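The authors deposited raw counts per gene for 6 bulk MARS-seq (3′-end RNA-seq) libraries, and normalized counts, a signal made by dividing each library by 1 factor per the file headers and values; the second kind was not used. Tools named in the submitters' processing notes, without a role for each, are TopHat2, HTSeq, DESeq2, cutadapt 1.8.3 and bcl2fastq 2.17.1.14, and the build named is mm10. No source used here gives the annotation, the strand setting or whether molecular identifiers were counted. The table lists genes with at least 6 counts in all, and no row lacked a name.

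Counts were tested with edgeR 4.0.16 in R 4.3.3: TMM, filterByExpr (minimum count 10, minimum total 15), the robust quasi-likelihood F test with region as the only term, and Benjamini-Hochberg adjustment over 9512 genes (threshold 0.05). SE was derived from F as the absolute log2 fold change divided by its square root. The procedure was tested on simulated data. Levels are TMM-scaled CPM; log2 CPM used a prior count of 2. Exact 95% (Clopper-Pearson) intervals and the limit of 3 counts cover counting error only. DESeq2 1.42.0, limma-voom (limma 3.58.1), other scalings, other filters, a replicate block and left-out libraries were alternatives. Gene positions are from GENCODE M21 (GRCm38, the same assembly as mm10).

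The members, gene lists, motifs and alternatives were chosen with earlier results of these data known. The text names the members, Sox9, Scx, up to 4 genes of each list with the smallest p, and the 3 nearest profiles per member among genes whose mean log2 CPM was 3 or more (predicted genes left out). Listed genes below the filter, cell type markers, and Alx1, Alx4, Tbx15 were named after their values were seen. Rsrc1 was named outside this rule, as it was not among the 4 tested neighbours with the smallest p.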

Additional observations from a re-analysis of the deposited data

How the results depend on the processing

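Pax1, Irx3, Irx5 and Zic1 kept their direction and their call in all 15 alternatives, with log2 fold changes of -4.41 to -3.53, -4.41 to -3.30, -2.40 to -2.01 and -3.32 to -2.65. Emx2 passed in none of the 15 (-1.41 to -0.28; adjusted p of 0.106 to 0.978). Shox2 passed in 10 of 15. It did not with limma-voom (log2 fold change 1.15, adjusted p = 0.0559) or in 4 of the 6 fits with 1 library left out, which ran from 0.82 to 1.44. The number of genes called over the whole table was 322, with 171 to 334 when 1 library was left out. It was 862 without proximal library 1 and distal library 3 together, with 441 of them towards distal and 421 towards proximal libraries, and it was 143 at an adjusted p of 0.01. The cause of these shifts was not tested. The Irx3 to Irx5 difference stayed between -1.83 and -1.23 with 1 library left out and was -1.78 with 0.1 added to counts.

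With the replicate number as a block, 465 genes were called. Shox2 had a log2 fold change of 1.16 and Emx2 of -0.74 (edgeR adjusted p = 0.121), and no member's call changed. The SE of Emx2 was 0.23 with the block and 0.48 without it. Among other genes, Meis3 (adjusted p = 0.032) and Pthlh (adjusted p = 0.00566) then passed, and the girdle and stylopod list held 5 calls in place of 3. The deviations of same-numbered libraries correlated at 0.35, -0.14 and 0.48, and not every library correlated best with its own number. In the submitters' titles, proximal and distal libraries with the same replicate number also carry the same sample number. A matched design is therefore possible, and the fit with the block is the one that would apply to it. No source used here says what the shared numbers stand for, so the main test did not take them as a pairing. The paired Irx3 to Irx5 difference was -1.59 (exact sign-flip p = 0.25, the smallest that 3 pairs allow).

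Irx1, which did not pass and ran from -1.26 to 0.41 with 1 library left out, changed sign without proximal library 1 (0.13) or 2 (0.39) and without distal library 1 (0.24) or 2 (0.41), and Runx2 did so without distal library 2 (-0.05). Depth limits the distal values of Irx3, Pax1 and Zic1 most, at 1 to 6 counts per library.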
